A study of Mus musculus with 12 samples.

Results

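The insulin granule exocytosis machinery was followed here as 9 genes of SNARE, Munc13, complexin, RIM, Rab and synaptotagmin proteins, taken by name from the 49315 genes of the count files: Stx1a, Snap25, Vamp2, Unc13a, Cplx2, Rims2, Rab3a, Rab27a and Syt7. The genes were taken by name with earlier results of these data known, and each of the 9 matched 1 row and was among the 16844 genes tested. Their mRNA was measured by RNA sequencing of total RNA in 12 libraries of MIN6 cells, a mouse insulinoma line with genotype WT that secretes insulin and stands in for the β-cell of the pancreas. All cells were grown in DMEM with FBS and glutamine, and there were 4 groups of 3 libraries. Control cells were untreated, starved cells had no amino acids (AA) for 16 h, re-added cells had AA back for 3 h, and Rap cells had AA back together with an agent labelled "Rap" for 3 h. The labels give no full name or dose for Rap, no composition of the AA-free medium and no length of starvation for the last 2 groups, and they leave unstated whether replicates are separate cultures. P-values therefore reflect only how far these replicates scatter, which may be technical.

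Insulin leaves the β-cell when the membrane of a secretory granule fuses with the plasma membrane. The SNARE protein of the granule (synaptobrevin, from Vamp2) zips together with those of the plasma membrane (syntaxin 1A from Stx1a, SNAP-25 from Snap25), after Rab GTPases and their effectors have brought the granule to the membrane and Munc13 has opened syntaxin for assembly. Complexin clamps and supports the assembled complex, and calcium binding to synaptotagmin triggers fusion. Neurons release transmitter with largely the same proteins.

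RefSeq promoter windows (GRCm38.p6) were available for 5 of the 9 genes: Stx1a, Unc13a, Rab3a, Rab27a and Cplx2. The windows of Stx1a, Rab3a and Rab27a are printed because these 3 genes rose together on AA re-addition, and that of Unc13a because it passed the test in no comparison. Each run goes 5′ to 3′ and ends before the RefSeq start site, and capitals mark GGGCGG or its reverse complement CCGCCC, the GC box that the factor Sp1 is known to bind.
Stx1a (chr5:135023232-135023456, plus strand): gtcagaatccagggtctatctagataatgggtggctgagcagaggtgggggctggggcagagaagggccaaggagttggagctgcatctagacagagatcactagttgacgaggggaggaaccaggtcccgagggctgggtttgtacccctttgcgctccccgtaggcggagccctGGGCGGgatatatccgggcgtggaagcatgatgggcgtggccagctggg
Rab3a (chr8:70754453-70754677, plus strand): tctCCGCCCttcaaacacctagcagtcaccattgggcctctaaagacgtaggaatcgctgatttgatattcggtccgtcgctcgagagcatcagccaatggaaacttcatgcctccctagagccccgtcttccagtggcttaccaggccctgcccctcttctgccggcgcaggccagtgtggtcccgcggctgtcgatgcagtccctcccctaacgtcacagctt
Rab27a (chr9:73044560-73044784, plus strand): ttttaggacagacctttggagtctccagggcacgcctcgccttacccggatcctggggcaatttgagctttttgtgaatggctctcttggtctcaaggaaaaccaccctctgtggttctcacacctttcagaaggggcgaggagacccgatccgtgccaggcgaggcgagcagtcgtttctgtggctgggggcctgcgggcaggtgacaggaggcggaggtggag
Unc13a (chr8:71671783-71672007, minus strand): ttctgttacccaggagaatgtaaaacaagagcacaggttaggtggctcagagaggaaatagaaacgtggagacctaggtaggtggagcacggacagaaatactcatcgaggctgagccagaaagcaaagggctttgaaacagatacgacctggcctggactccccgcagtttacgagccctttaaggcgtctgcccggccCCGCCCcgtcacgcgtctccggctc
RefSeq lists 2 starts each for Rab3a and Rab27a, and the window nearer the start of the counted gene is printed. A GC box stood once in the printed windows of Stx1a, Rab3a and Unc13a and was absent from that of Rab27a, and 29.2% of all 32851 mouse promoter windows of this length held at least 1. The other motifs searched on both strands were TGACGTCA (cyclic AMP response element, 1.2% of all windows), CACGTG (E-box, 5.2%), TGATGNAAT (the composite element of ATF4, 0.7%) and TAATTA (a homeodomain core, 4.6%), and none of them stood in the 4 printed windows. The second window of Rab3a held no GC box, and that of Rab27a held 1 E-box and no GC box. These matches describe the letters of the windows only. The RefSeq start of Cplx2 lies 68793 bases upstream of the first exon base in the count files, so its window does not adjoin the counted gene model.

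Between 18555958 and 25631056 reads were counted per library. The unit CPM is a read count divided by the library size, scaled with TMM factors to a common size, and 1 CPM stood for 18.1 to 26.1 reads. Levels and sums of marker genes in this paragraph are CPM on raw totals instead. The 14 β-cell marker genes were all detected and summed to between 44311 and 71681 CPM, with Slc2a2 (1.01 to 10.5 CPM) and Ucn3 (0.42 to 1.48 CPM), markers of mature β-cells, near the bottom. Mafa (125 to 469 CPM), G6pc2 (1088 to 3144 CPM) and Slc30a8 (94.6 to 420 CPM) of the same list were far higher. Markers of fibroblasts, leukocytes and endothelium (30 genes, all detected) summed to 2133, 2539 and 2430 CPM in control, 2103, 120 and 986 CPM in starved, 838, 109 and 114 CPM in re-added, and 113, 108 and 101 CPM in Rap libraries. Lung epithelium markers moved alike, from 1640 to 1969 CPM in control down to 47.7 to 58.3 CPM with Rap. Control, starved replicate 1 and, less so, starved replicate 3 and re-added replicate 1 thus carried RNA of other cells that the remaining libraries nearly lacked, and this differed between the groups. Each pairwise comparison was therefore also computed in libraries matched on these markers, where both groups had such libraries. The F test over all groups, the TPM levels and the correlations below were not. In bulk RNA a smaller share of a cell type and less RNA per cell cannot be told apart. Of the 16 neuron and glia markers, which matter because neurons use the same release machinery, 15 were detected, and they summed to 1206 to 1458 CPM in control, 1093 to 1182 CPM in starved, 1538 to 1661 CPM in re-added and 1090 to 1201 CPM in Rap libraries. Nefm, a neurofilament gene, gave most of that range (means of 551, 314, 753 and 427 CPM). Nefl (202 to 288 CPM), Map2 (134 to 263 CPM), Tubb3 (101 to 156 CPM), Syn1 (61.1 to 127 CPM) and Mbp (44.5 to 87.0 CPM) were also clearly detected. Other genes of the list were low: the neuronal nuclear marker Rbfox3 stayed at 0.17 to 0.76 CPM and Olig2 of oligodendrocytes was at 0 in all libraries.

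**Figure D1:**
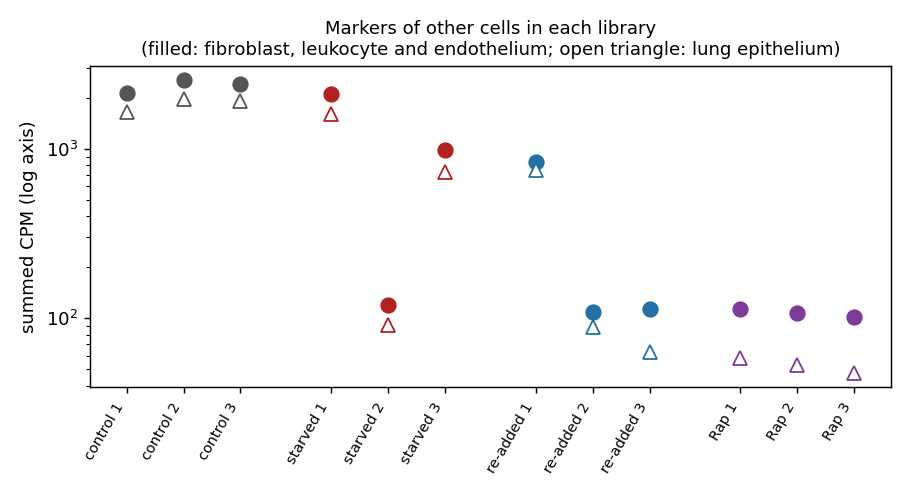
Summed level of marker genes of other cell types in each of the 12 libraries (y axis, CPM on raw totals, log axis). Filled circles are fibroblast, leukocyte and endothelium markers together, and open triangles are lung epithelium markers. The control libraries sit above 1600 CPM for both sums and the Rap libraries below 120 CPM, with starved and re-added libraries spread between.

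Levels per transcript length (TPM, deposited by the authors) put the 9 genes in a wide order. In control cells Rab3a (182 ± 5.33 TPM, SD, n = 3) and Cplx2 (176 ± 18.2) stood highest and overlapped each other. Rab27a (101 ± 16.9) and Vamp2 (93.1 ± 5.57) followed, also overlapping, and then Snap25 (72.6 ± 7.78) and Syt7 (41.0 ± 8.98), each with a range of its own. Unc13a (20.9 ± 7.75) and Stx1a (19.4 ± 0.78) overlapped. Rims2 (10.8 ± 4.76 TPM) had the lowest mean, and its range (5.40 to 14.2 TPM) met that of Unc13a (13.0 to 28.5 TPM) but not that of Stx1a. Of the plasma membrane SNAREs, Snap25 mRNA thus exceeded Stx1a mRNA 3.36 to 4.09 times per length in the control libraries. The ratio was 3.47 to 3.54 in starved, 3.74 to 4.58 in re-added and 4.37 to 5.13 in Rap libraries. The re-added range overlapped those of control and Rap. The 9 genes together made up 716 ± 54.4 TPM in control, 801 ± 18.2 in starved, 924 ± 30.9 in re-added and 924 ± 47.9 TPM in Rap cells.

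**Figure D2:**
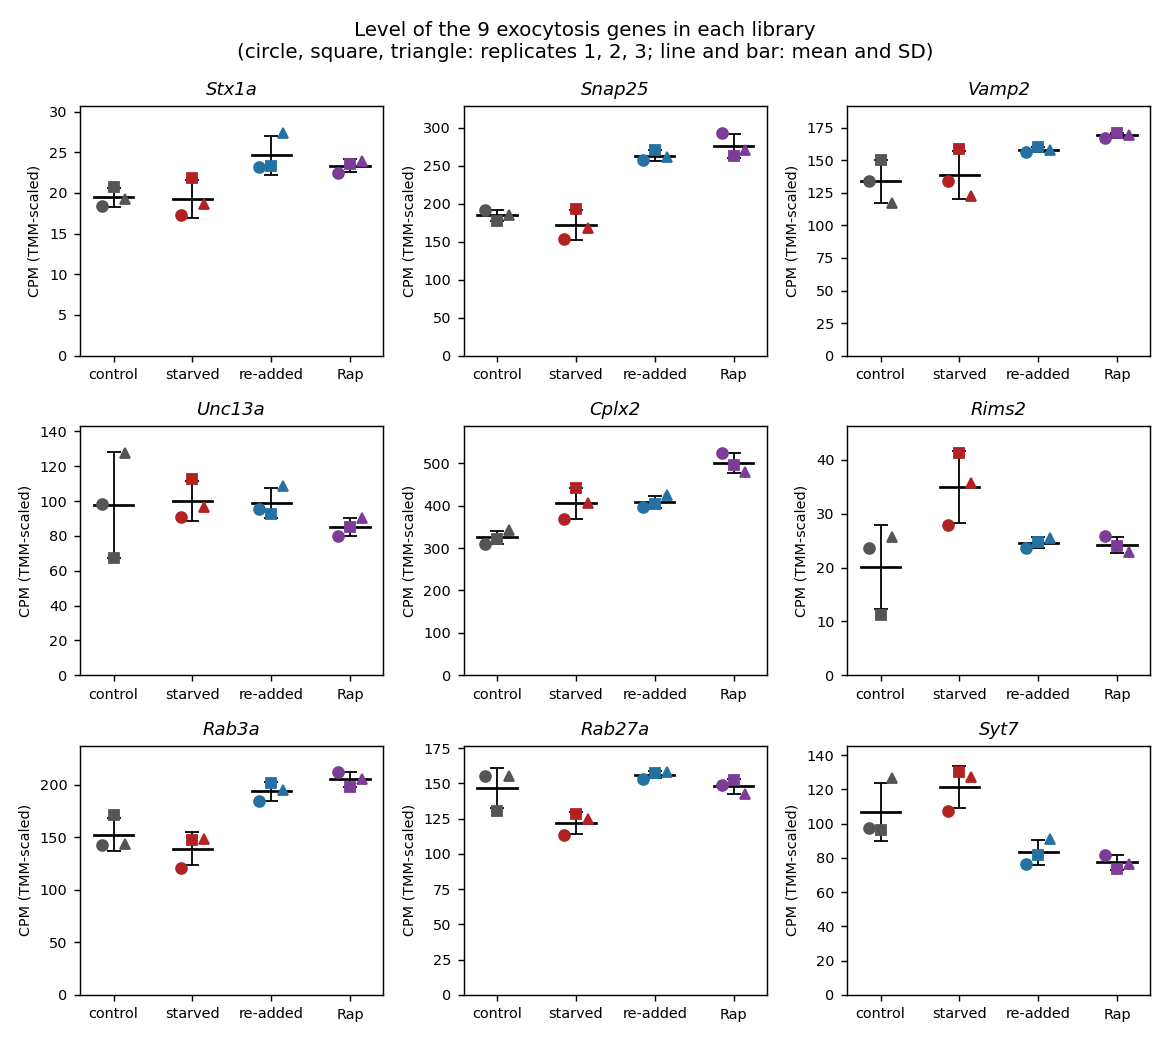
Level of each of the 9 genes in every library (y axis, TMM-scaled CPM, starting at 0) by group. Circles, squares and triangles are replicates 1, 2 and 3, and the line and bar are the mean and SD. Snap25 and Rab3a stand higher, and Syt7 lower, in the re-added and Rap libraries than in every starved library.

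Over all 4 groups, edgeR's F test called 8 of the 9 genes (adjusted p under 0.05) where it called 71.9% of all genes tested. Snap25 (adjusted p = 5.55e-05), Cplx2 (0.000295) and Rab3a (0.000821) had the smallest values, and Unc13a (0.58) did not pass. Without single libraries the count was 6 to 8.

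On starvation for 16 h Rims2 and Cplx2 rose, Rab27a fell, and the 3 SNARE genes did not pass the test. In libraries matched on other-cell markers edgeR called none of the 9 (4 at an unadjusted p under 0.05), where 18.1% of all genes were called. The question of this comparison is what the loss of AA does to the mRNA of the release machinery. The count of 2 higher and 1 lower stands against 24.3% of all tested genes called higher and 14.6% called lower, 38.9% in either direction, so the share of called members (3 of 9) is near that background, and the median log2 fold change was 0.03 over the 9 genes and 0.01 over all genes. The split of calls depends on scaling: 62.5% of called genes were higher with TMM and 44.6% with upper-quartile factors, where the median of all genes shifted to -0.13. In a limma fit of log2(TPM + 1), another test and unit, 73.1% were higher and the median of all genes was 0.15.

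Re-addition of AA for 3 h raised 4 of the 9 genes and lowered 1. Snap25 rose 1.53-fold, Rab3a 1.39-fold, Stx1a and Rab27a 1.28-fold each, and Syt7 fell to 0.685 of its starved level. Of all genes 18.4% were called higher and 18.8% lower in this comparison, 37.3% in all, so the share of called members (5 of 9) is read against that background. The median log2 fold change was 0.19 over the 9 genes and -0.06 over all genes.

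Rap given with the AA changed 1 of the 9 genes in this fit, Cplx2, which was 1.22-fold higher than after re-addition alone. Of all genes 7.98% were called, 4.55% higher and 3.43% lower, and the median log2 fold change was -0.02 over the 9 genes and 0 over all genes. The split of all calls moved less with scaling here, with 57% of called genes higher with TMM and 52.6% with upper-quartile factors. In the limma fit of log2(TPM + 1), another test and unit, it was 28.6%.

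**Figure D3:**
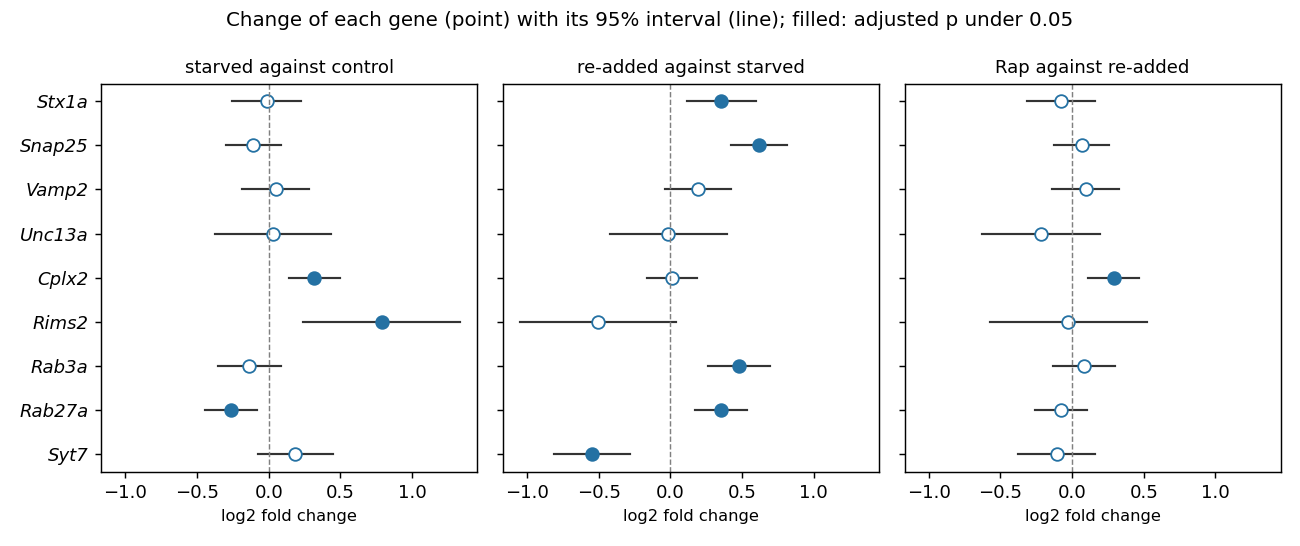
Log2 fold change of each of the 9 genes (x axis, points) with its 95% interval (lines) in the 3 main comparisons. Filled points passed the edgeR test at an adjusted p under 0.05: 3 in the left, 5 in the middle and 1 in the right panel.

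Among the SNAREs, Snap25 (chr2:136713453-136782428, plus strand, GRCm38.p6) changed most. It was at 192, 177 and 185 CPM in control libraries, 153, 193 and 168 CPM in starved, 257, 271 and 261 CPM in re-added, and 293, 263 and 270.2 CPM in Rap libraries. All 6 libraries with AA given back were above all 6 others. The log2 fold change on re-addition was 0.62 (SE 0.08, 95% interval 0.42 to 0.81, edgeR adjusted p = 0.000145), and it passed in all 23 alternatives, at 0.52 (adjusted p = 0.00977) in libraries matched on other-cell markers. Against control the starved level did not pass (log2 fold change -0.11, adjusted p = 0.315), though it did so as a fall with upper-quartile factors (-0.25, adjusted p = 0.00694) and DESeq2 (-0.17, 0.0483). Rap against re-added was 0.07 on the log2 scale (95% interval -0.13 to 0.26). Isoforms are not resolved by gene counts: GENCODE M21 lists 2 coding transcripts of Snap25, which is known to be spliced into the forms a and b.

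Stx1a (chr5:135023482-135051100, plus strand), the syntaxin that pairs with SNAP-25, was the least abundant SNARE of the 3. It was at 18.4, 20.7 and 19.2 CPM in control, 17.3, 21.8 and 18.7 CPM in starved, 23.2, 23.3 and 27.4 CPM in re-added and 22.4, 23.6 and 24.0 CPM in Rap libraries. The starved and control libraries overlapped (log2 fold change -0.01, 95% interval -0.25 to 0.23), while every re-added library was above every starved one. The rise on re-addition (0.36, SE 0.10, edgeR adjusted p = 0.018) no longer passed without re-added replicate 3 (0.27, adjusted p = 0.091) or in matched libraries (0.27, 0.248).

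Vamp2 (chr11:69088490-69092384, plus strand), the granule SNARE, moved least clearly. Its libraries were at 134, 150.4 and 117 CPM in control, 134, 159 and 123 CPM in starved, 157, 160.3 and 158 CPM in re-added, and 167, 171 and 170 CPM in Rap cells. The starved libraries overlapped the control and the re-added ones, and the Rap libraries were above all others. Vamp2 passed no main comparison (re-addition: log2 fold change 0.19, SE 0.10, edgeR adjusted p = 0.153), and without starved replicate 2 it passed on re-addition (0.28, adjusted p = 0.0334).

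Of the priming factors, Unc13a (chr8:71624417-71671757, minus strand), which encodes Munc13-1, passed no comparison. Its libraries were at 98.4, 67.3 and 128 CPM in control, 90.8, 113 and 96.7 CPM in starved, 95.5, 92.8 and 109 CPM in re-added, and 80.2, 85.3 and 90.2 CPM in Rap cells. The control libraries spanned the whole range of the other groups, so the 95% interval of the starved change ran from -0.38 to 0.44 on the log2 scale and changes within it were not detectable. Control replicate 2 was the low one: in it, the class of genes with the longest exon sequence, to which Unc13a with 12623 exon bases belongs, lay at -0.20 against the group mean in log2 CPM at the median, and the class of the shortest genes at 0.25. Without that library Rap was below control (-0.41, adjusted p = 0.0179). In fits of the 6 libraries alone Rap was below re-added (-0.25, edgeR adjusted p = 0.0223) and below starved (-0.24, 0.016). The last 495 bases of the gene overlap Colgalt1, transcribed from the other strand at 2556 to 4568 counts a library, and since the strand setting of the counting is not given in the sources used here, some of these reads cannot be told apart.

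Cplx2 (chr13:54371349-54383917, plus strand), the main complexin of these cells, rose at 2 steps. It was at 310.1, 322 and 342 CPM in control, 369, 441 and 405 CPM in starved, 397, 404 and 425 CPM in re-added, and 525, 496 and 479 CPM in Rap libraries. All starved and re-added libraries were above all control libraries and below all Rap libraries. The rise on starvation (log2 fold change 0.32, SE 0.08, edgeR adjusted p = 0.0063) was 0.20 in libraries matched on other-cell markers, which include 1 starved library, and did not pass there (0.154). Re-addition left it at its starved level (0.01, 95% interval -0.17 to 0.19). The rise with Rap (0.29, SE 0.08, adjusted p = 0.0384) lost its call without any 1 of the 6 libraries compared, at 0.25 to 0.32 (adjusted p from 0.0775 to 0.157), and in the fit of log2(TPM + 1), at 0.19 (0.148).

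Rims2 (chr15:39198332-39681940, plus strand), the active zone scaffold that binds Rab3 and Munc13, showed the largest starvation change of the 9. Its libraries were at 23.7, 11.2 and 25.6 CPM in control, 27.9, 41.3 and 35.6 CPM in starved, 23.5, 24.7 and 25.5 CPM in re-added, and 25.8, 23.9 and 22.8 CPM in Rap cells. The starved libraries were above all 9 others, and control replicate 2, also the low library for Unc13a, was below all. The rise (log2 fold change 0.79, SE 0.24, edgeR adjusted p = 0.0203) was lost without starved replicate 2 (0.65, 0.075) or starved replicate 3 (0.72, 0.0687). It was also lost in libraries matched on other-cell markers (0.48, adjusted p = 0.36), with the marker level as a covariate (0.60, 0.0533) and in a fit of the 6 libraries alone (0.74, 0.111). Without control replicate 2 it was smaller, 0.51, and still passed. The return on re-addition did not pass in the fit of all libraries (-0.50, adjusted p = 0.114) and passed without control replicate 2 (-0.51, 0.00642). It also passed with the marker level as a covariate (-0.63, edgeR adjusted p = 0.0262) and in a fit of the 6 libraries alone (-0.48, 0.0165). In 20 of the 23 alternatives the return did not pass, among them the replicate block (-0.51, edgeR adjusted p = 0.13). It was -0.66 in matched libraries, which hold 1 starved library.

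The Rab GTPases tether and dock the granule. Rab3a (chr8:70754679-70758677, plus strand) was at 143, 171 and 144 CPM in control, 121, 148 and 149 CPM in starved, 184, 202 and 195 CPM in re-added, and 212, 198 and 206 CPM in Rap libraries. As with Snap25, the 6 libraries with AA given back were above the other 6. Starved against control did not pass (log2 fold change -0.13, adjusted p = 0.269) but did so as a fall with upper-quartile factors (-0.28, 0.0227). The rise on re-addition (log2 fold change 0.48, SE 0.09, edgeR adjusted p = 0.00195) passed in all 23 alternatives and was 0.48 (adjusted p = 0.024) in matched libraries. The gene shares 29 bases at its end with Mpv17l2 on the other strand.

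Rab27a (chr9:73044854-73097629, plus strand), whose product recruits granuphilin and other effectors to the granule, fell on starvation and rose on re-addition. It was at 155, 130.2 and 155 CPM in control, 113, 128 and 125 CPM in starved, 153, 157 and 158 CPM in re-added, and 149, 152 and 142 CPM in Rap libraries. The starved libraries were below all others. The fall (log2 fold change -0.27, SE 0.08, edgeR adjusted p = 0.0191) lost its call without control replicate 1 (-0.22, 0.0726) or 3 (-0.22, 0.0605), and in the fit of log2(TPM + 1), where it was -0.14 (0.276). It also missed the threshold in matched libraries (-0.36, 0.0593) and in a fit of the 6 libraries alone (-0.30, 0.0618). The rise (0.35, SE 0.08, adjusted p = 0.00402) passed in 22 of 23 alternatives, the exception being the matched libraries (0.36, 0.0855).

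Syt7 (chr19:10389090-10453181, plus strand), the high-affinity calcium sensor of the β-cell granule, went the other way. It was at 97.5, 96.4 and 127 CPM in control, 107, 130.05 and 127 CPM in starved, 76.7, 81.8 and 91.3 CPM in re-added, and 81.8, 73.6 and 76.5 CPM in Rap libraries. Every library with AA given back was below every other library. The fall on re-addition (log2 fold change -0.55, SE 0.12, edgeR adjusted p = 0.00296) passed in all 23 alternatives, at -0.53 (adjusted p = 0.035) in matched libraries. With 9 coding transcripts in GENCODE M21, Syt7 has the most of the 9 genes, and which of them changed cannot be read from gene counts.

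The remaining 3 comparisons reuse the same libraries, so their values are given side by side and are not independent of those above. Re-added against control called 4 of the 9 higher and 1 lower, where 24.8% of all genes were higher and 24.5% lower (49.3% in all). Rap against starved called 6 higher and 1 lower, where 20.2% of all genes were higher and 23.9% lower (44.1%). Rap against control called 5 higher and 1 lower, where 27.7% of all genes were higher and 25.3% lower (53%). Snap25 was 0.51, 0.68 and 0.58 higher on the log2 scale in these 3 comparisons, Rab3a 0.34, 0.56 and 0.43, and Cplx2 0.33, 0.30 and 0.62. Syt7 was lower in each, at -0.36, -0.65 and -0.47. The first of these lost its call without control replicate 3 (-0.22, adjusted p = 0.0898) or re-added replicate 2 (-0.34, 0.0738) and in the fit of log2(TPM + 1) (-0.24, 0.134). Stx1a passed at 0.34, 0.28 and 0.26, the last 2 at adjusted p of 0.0467 and 0.0491, which 1 left-out library undid in 8 and 10 of 12 cases. With the marker level as a covariate Stx1a in Rap against starved was 0.12 (edgeR adjusted p = 0.502). It was 0.14 in matched libraries, which hold 1 starved library. Vamp2 passed only with Rap, at 0.29 against starved and 0.34 against control, and Rab27a only in Rap against starved, at 0.28. Against starved, 1 left-out library undid the call of Vamp2 in 5 and that of Rab27a in 3 of 12 cases. Neither passed there in the fit of log2(TPM + 1) (0.17 and 0.15) or in matched libraries (0.13 and 0.25). Cplx2 against starved also missed the threshold in the fit of log2(TPM + 1) (0.18) and in matched libraries (0.22). Against control, Vamp2 lost its call without control replicate 3 (0.25, adjusted p = 0.0513). Re-added and Rap cells had far fewer transcripts of other cells than control cells, and with the summed other-cell marker level as a covariate 1 member passed in re-added against control (Syt7) and 2 in Rap against control (Cplx2 and Syt7). Calls over all genes fell in the same fit as well, to 17.2% and 12.3%. Libraries of like marker level were not found in these pairs of groups, so treatment and other-cell RNA cannot be told apart there.

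The 3 members with the smallest F-test p were compared with every other tested gene by the Pearson correlation of log2 CPM over the 12 libraries, which share depth, groups and other-cell RNA, and so the values are descriptive. Closest to Snap25 were Rab9b (0.994), a Rab GTPase, Ercc3 (0.99), a helicase of transcription factor IIH, and AA414768 (0.987). Rab9b rose from 13.3 ± 2.32 CPM in starved to 30.5 ± 0.35 CPM in re-added cells. Closest to Cplx2 were Lrrc61 (0.987), Tctn2 (0.978) and Nub1 (0.974), and closest to Rab3a were Edem2 (0.983), Agt (0.975), which encodes angiotensinogen, and Stoml1 (0.973). Among the 9 genes themselves Snap25 and Rab3a were most alike (0.93), and Snap25 and Syt7 most opposed (-0.81).

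Each member was set beside its family by TPM. Unc13a (21.0 TPM, mean of 12 libraries), Rab3a (214), Rab27a (102) and Cplx2 (230) were the most abundant of theirs. Rims2 (14.3) was level with Rims3 (13.7). The other orders are given by group, since they moved between groups. Stx1a was below Stx4a, another syntaxin of the plasma membrane, in control (19.4 against 27.8 TPM), and its mean was the higher after re-addition (26.3 against 22.9 TPM), where the ranges overlapped. Snap47 exceeded Snap25 in each group, by 115 against 72.6 TPM in control and 127 against 110 TPM after re-addition. Vamp8 (185 TPM) and Vamp3 (151 TPM) exceeded Vamp2 (93.1 TPM) in control, while after re-addition Vamp2 (118 TPM) was above Vamp3 (113 TPM) and Vamp8 (105 TPM). All control libraries carried other-cell RNA. Within starved replicates 1, 2 and 3 Vamp8 was at 155, 122 and 141 TPM, and Vamp3 at 105, 107 and 93.0 TPM. What part of this order came from other cells was not tested. Syt7 came after Syt13, Syt4 and Syt11 in each group. It overlapped Syt5 in control (41.0 against 36.7 TPM) and starved cells (50.4 against 49.1 TPM) and was below it after re-addition (34.1 against 62.6 TPM) and with Rap (29.5 against 75.8 TPM). Some relatives moved with the other-cell RNA: Unc13d, the Munc13 known from blood cells, was at 9.37 to 12.6 CPM in control but 0.39 to 0.94 CPM in Rap libraries, and 9.46 CPM in starved replicate 1 against 0.75 CPM in replicate 2. Rab27b was at 1.59 to 2.11 CPM in control and at 0 in 2 of 3 Rap libraries.

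**Figure D4:**
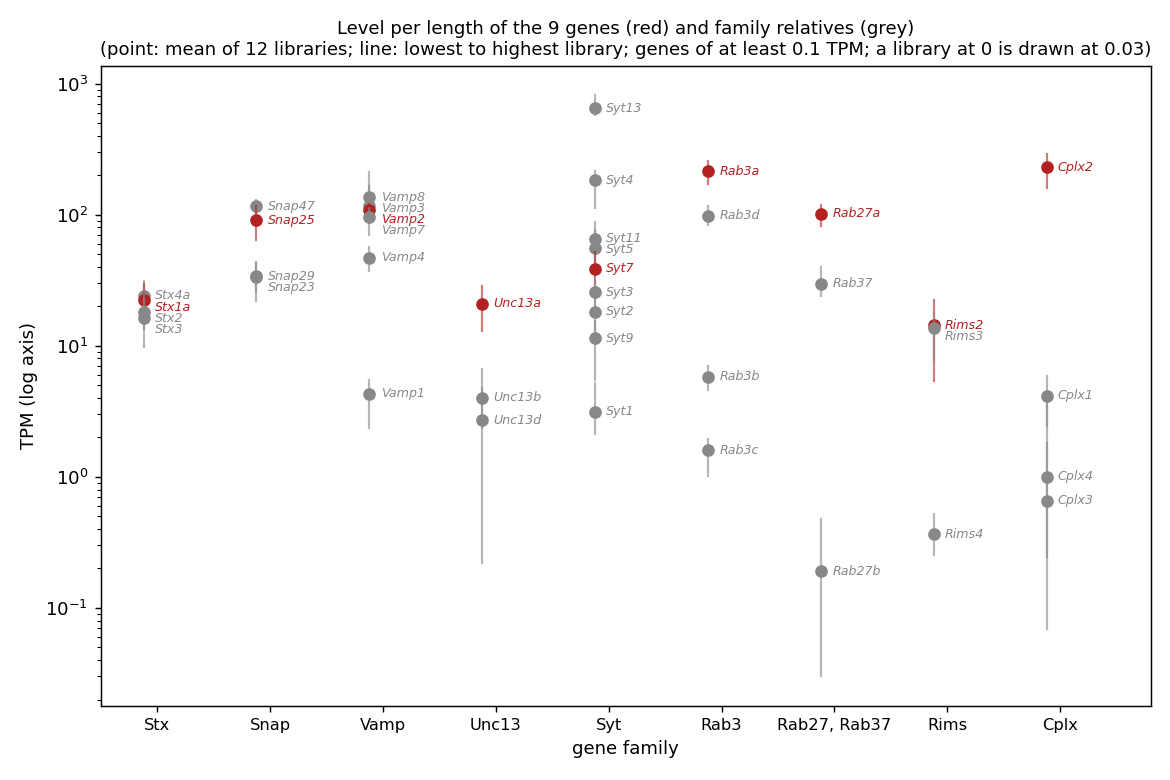
Level per length (y axis, TPM, log axis) of the 9 genes in red and of their family relatives in grey, by family. Points are means of 12 libraries and lines run from the lowest to the highest library. Rab3a, Rab27a, Unc13a and Cplx2 top their families, while the mean of Syt7 lies below those of Syt13, Syt4, Syt11 and Syt5, the last only through the re-added and Rap libraries.

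Around the 9 genes, 6 lists of further release genes held 91 genes, of which 88 were tested (Syt16, Doc2b and Rims1 were too low). Starvation called 25 higher and 15 lower, re-addition 17 higher and 23 lower, and Rap against re-added 4 higher and 1 lower. These stand against the same backgrounds of 38.9%, 37.3% and 7.98%. The genes named are taken from the 3 of each list with the smallest F-test p.

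Of 16 further calcium sensors, CAPS proteins and complexins, 8 rose and 2 fell on starvation, and 1 rose and 5 fell on re-addition. Syt17 went from 2.23 ± 0.40 to 5.71 ± 0.72 CPM on starvation (log2 fold change 1.35, edgeR adjusted p = 0.000251). Syt5, a synaptotagmin known from dense-core granules, rose at each of the 3 steps, from 33.0 ± 3.72 CPM in control to 40.4 ± 1.86 in starved, 52.3 ± 3.24 in re-added and 68.1 ± 1.86 in Rap cells. Its rise on starvation (0.29, edgeR adjusted p = 0.0176) lost its call without control replicate 1 (0.24, 0.0626) or starved replicate 3 (0.24, 0.0577). That call was also lost with upper-quartile factors (0.15, 0.196), with the marker level as a covariate (0.24, 0.099) and in a fit of the 6 libraries alone (0.26, 0.0947). The rise of Syt5 with Rap (0.38, 0.0168) lost its call without re-added replicate 1 or 3 or any Rap library (0.33 to 0.40). In matched libraries its log2 fold changes were 0.24 on starvation and 0.40 on re-addition, against 0.29 and 0.37 in the main fit. The matched fits hold 1 starved library, so these are sizes only and do not show that the rises hold there. Syt1, the synaptotagmin of fast transmitter release, fell at the first 2 steps and was at 14.1, 10.1, 6.57 and 7.06 CPM in the 4 groups. Its fall on starvation (-0.48, edgeR adjusted p = 0.0133) lost its call without starved replicate 3 (-0.46, 0.051), in matched libraries (-0.28) and in the fit of log2(TPM + 1) (-0.29, 0.117). On re-addition the log2 fold change of Syt1 was -0.62 in the main fit. It was -0.49 in matched libraries, again a size only with 1 starved library.

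Rab effectors split as well, with 6 higher and 4 lower of 21 on starvation and 2 higher and 6 lower on re-addition. Rph3al, which encodes the Rab27 and Rab3 effector Noc2 of endocrine granules, rose from 157 ± 3.24 to 216 ± 18.2 CPM on starvation and fell to 91.0 ± 4.43 CPM on re-addition (-1.25, edgeR adjusted p = 2.63e-07). Mlph, melanophilin, moved alike (21.8, 35.5 and 15.7 CPM). Rab37 fell on starvation (-0.62) and was the list's 1 gene called with Rap (0.44, adjusted p = 0.00911), a call lost without re-added replicate 3 (0.39, 0.0572).

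The SM, Munc13 and disassembly list had 2 genes higher of 14 on starvation, and 3 higher and 3 lower on re-addition. NSF and its SNAP adaptors take spent SNARE complexes apart, and their genes were called in both directions on re-addition. Nsf rose by 0.45 (edgeR adjusted p = 0.00313), Napb by 0.96 (4.03e-05) and Napg by 0.36 (0.00589), while Napa fell by 0.29 (0.0047). Nsf did not pass in matched libraries (0.42, 0.0691).

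Of the other SNAREs 3 rose and 8 fell of 16 on starvation, and 6 rose and 6 fell on re-addition. Stx3 fell from 49.0 ± 5.21 to 22.1 ± 2.17 CPM on re-addition (-1.15, edgeR adjusted p = 1.86e-05), while Snap23, the broadly expressed relative of Snap25, rose from 36.6 ± 2.80 to 65.5 ± 0.70 CPM (0.84, 4.67e-05). Stx16 of the trans-Golgi rose by 0.31 in the main fit. Its log2 fold change was 0.29 in matched libraries, a size only, since they hold 1 starved library. The active zone list had 3 higher of 12 on starvation, among them Bsn (from 8.56 ± 2.79 to 21.1 ± 1.33 CPM) and Rims3 (log2 fold change 0.78), and 2 lower on re-addition, and Ppfia4 passed neither step.

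The exocyst, the complex that tethers vesicles at the plasma membrane, had 5 of its 9 genes higher and 1 lower on re-addition. Exoc3 rose from 54.2 ± 3.33 to 88.8 ± 4.16 CPM (0.71, edgeR adjusted p = 3.64e-05), Exoc6 from 22.8 ± 2.89 to 41.8 ± 2.60 CPM (0.88, 3.79e-05) and Exoc1 by 0.66. On starvation 3 were higher and 1 lower, and with Rap 1 (Exoc5) was lower. In libraries matched on other-cell markers, which hold 1 starved library, 15 of the 88 genes passed on re-addition (5 higher, 10 lower), where 20.1% of all genes were called.

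**Figure D5:**
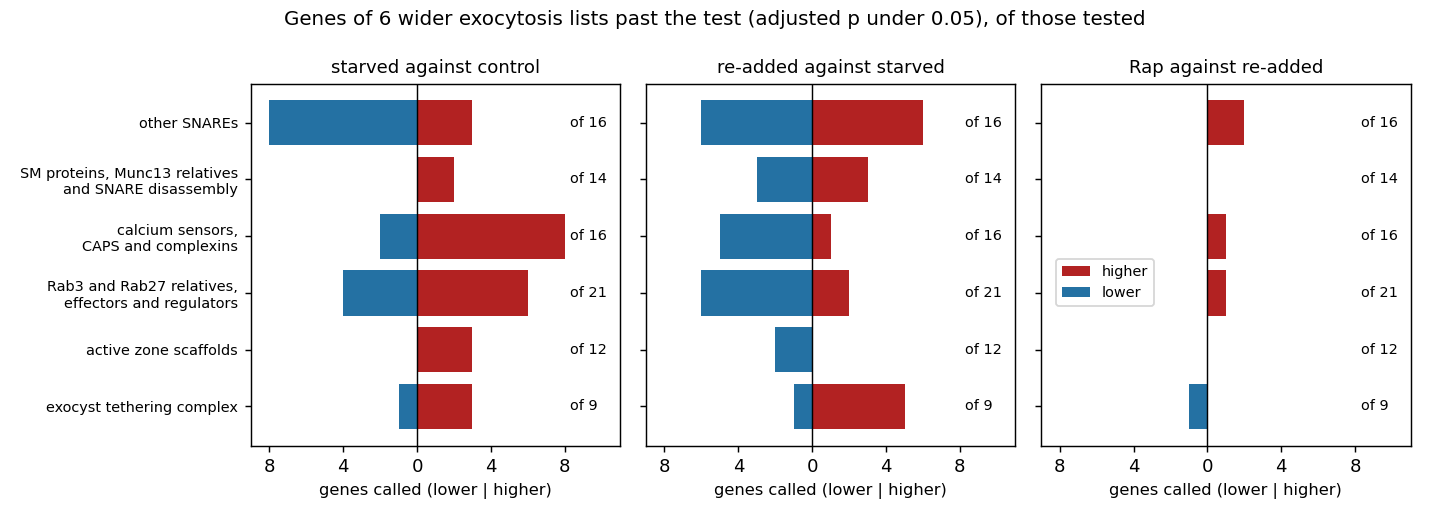
Number of genes of each of the 6 wider lists called lower (blue, to the left) and higher (red, to the right) in the 3 main comparisons, beside the number tested. On starvation the other SNAREs hold 11 calls of 16 genes, the calcium sensors 10 of 16 and the Rab list 10 of 21, and Rap against re-added holds 5 in all.

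For reference in the same cells, Pdx1, a homeobox factor of the β-cell marker list, fell from 627 ± 25.3 to 410 ± 40.9 CPM on starvation (-0.61, edgeR adjusted p = 8.8e-05). It was 476 ± 12.9 CPM after re-addition (0.22, adjusted p = 0.0399). Ins1 and Ins2 mRNA fell on starvation by 0.76 and 0.48 on the log2 scale and did not pass on re-addition (-0.11 and -0.08). Snap25 and Rab3a, in contrast, did not pass on starvation and passed on re-addition, and the difference between these patterns was not tested.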

How the data were processed

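Per the labels' protocols, total RNA was sequenced as paired reads of 150 bases. The authors deposited raw read counts per gene for each library, with exon coordinates per the file headers, and 1 table of TPM. The TPM equal counts per exon length rescaled (within 5e-05). Per the submitters' processing notes, Subread 2.0.1, limma 3.46.0 and GRCm38.p6 were used. No aligner, strand setting or annotation release is given in the sources used here.

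In R 4.3.3, edgeR 4.0.16 filtered genes (filterByExpr, minimum count 10), scaled by TMM and fitted 12 libraries (8 residual degrees of freedom, quasi-likelihood F test, Benjamini-Hochberg over all genes, threshold 0.05), tested on simulated data. Alternatives used DESeq2 1.42.0, limma 3.58.1, other scalings and filters, libraries left out and other-cell markers. Likeness was also recomputed under alternatives chosen after seeing the data. Marker sums use raw totals. Named genes are the members, 3 per wider list and per likeness by smallest F-test p or highest correlation, and Pdx1, Ins1 and Ins2. 1 gene that this rule takes is not reported here. Genes named outside this rule were chosen after their values were seen. Members and lists were chosen with earlier results of these data known.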

Additional observations from a re-analysis of the deposited data

How the results depend on the processing

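Alternatives were other scalings (upper-quartile, RLE), DESeq2, no filter on low counts, limma on log2(TPM + 1) or log2(TPM + 0.1), a replicate block, other-cell markers as a covariate, only the 6 libraries compared, matched libraries and each library left out. The rise of Snap25 and Rab3a and the fall of Syt7 on re-addition passed in all 23. The matched comparisons set 1 to 3 libraries of a group against 1 to 3 of the other, with 1 starved library in each that uses starved cells, whose spread is assumed to be that of the other groups. Matched fits could not be made for re-added or Rap against control.

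Of the 9 genes, 3 were called in starved against control, and 5 with upper-quartile factors, 1 with the covariate, 1 with only 6 libraries and 0 in matched libraries (edgeR, 4 at an unadjusted p under 0.05). In re-added against starved, matching leaves 1 starved library, and Stx1a and Rab27a lost their calls there. The median log2 fold change of the 9 genes went from 0.19 to 0.06, and that of all genes from -0.06 to 0. In Rap against re-added 1 became 2 with only 6 libraries and 0 with no filter, with all 3 limma fits, with the covariate, when matched, and 0 to 1 with single libraries left out; in each of these 1 or 2 passed at an unadjusted p under 0.05. In re-added against control 5 became 1, and in Rap against control 6 became 2, with the covariate. In Rap against starved 7 became 9 with only 6 libraries, 3 with the 3 limma fits, 4 with the covariate and 4 to 8 with libraries left out. Matching leaves 1 starved library there as well. It moved the median log2 fold change of the 9 genes from 0.28 to 0.14, and that of all genes from -0.03 to 0.02. Calls over all genes moved in these fits too, and they fell when matched. On starvation they went from 38.9% to 39.4% with upper-quartile factors, 32.6% with the covariate and 25.5% with only 6 libraries. Rap against re-added went from 7.98% to 26.1% with only 6 libraries and 13.1% in the fit of log2(TPM + 1). It was at 4.18% of 30751 genes with no filter, 9.95% with the covariate and 6.04% when matched. In Rap against starved 44.1% became 53% with only 6 libraries, 40.6% in the fit of log2(TPM + 1) and 29.7% with the covariate. The covariate left 17.2% in re-added and 12.3% in Rap against control.

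Same-numbered libraries deviated together in some pairs (starved with re-added replicate 1, 0.812, and replicate 2, 0.672) and not in others (from -0.332, median -0.018 over 18 pairs), so the numbers were not taken to pair the samples. With the replicate block, Rap against re-added called 0 of the 9 (Cplx2 0.29, adjusted p = 0.0629), and Vamp2 passed in re-added against control (adjusted p = 0.0378).

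Of the 88 wider genes, 40 in starved against control became 21 with only 6 libraries and 19 when matched. In re-added against starved 40 became 26 in the limma fit of all genes and 15 when matched. In Rap against re-added 5 became 8 with upper-quartile factors, 13 with DESeq2, 24 with only 6 libraries and 0 to 11 with libraries left out. The covariate left 24 in re-added against control and 13 in Rap against control, and matching left 22 in Rap against starved. Over all genes Rap against re-added called 1344, 2306 with DESeq2, 2022 in limma, 3959 with only 6 libraries and 635 to 2058 with libraries left out. In the other comparisons calls over all genes moved both ways. With only 6 libraries they fell to 25.5% on starvation and rose to 43.9% on re-addition and 53% in Rap against starved. The limma fit of all genes called 5465 of 30751 genes (17.8%) on re-addition, against 6275 of 16844 in the main fit. With the covariate 17.2% were left in re-added and 12.3% in Rap against control.

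Signs reversed only in values that did not pass, apart from Stx1a in Rap against control with the covariate (-0.019). On starvation the limma fits gave 0.10 and 0.11 for Stx1a and 0.011 for Snap25. Vamp2 was -0.099 with upper-quartile factors, -0.014 with RLE and DESeq2 and -0.046 with the covariate. Unc13a was -0.11, -0.034 and -0.034 (upper-quartile, RLE, DESeq2), -0.087 with the covariate, -0.093 when matched and -0.010 with 6 libraries. On re-addition Unc13a was 0.048 (upper-quartile), 0.0036 (RLE), 0.0032 (DESeq2), 0.0002 (no filter) and 0.012 (6 libraries), and Cplx2 was -0.0091 in the limma fits, -0.050 with the covariate and -0.034 when matched. In Rap against re-added the limma fits gave -0.038 for Snap25, -0.0067 for Vamp2 and -0.020 for Rab3a. In re-added against control Unc13a was -0.061 (upper-quartile), -0.031 (RLE), -0.030 (DESeq2), -0.19 (covariate) and -0.0047 (6 libraries), and the covariate gave -0.0088 for Rab27a and -0.038 for Rims2. In Rap against control Rab27a was -0.076, -0.049 and -0.050 (upper-quartile, RLE, DESeq2), -0.033 with no filter, -0.12 with the covariate and -0.038 with 6 libraries, and Rims2 was -0.16 with the covariate. With single libraries left out the ranges on starvation were -0.11 to 0.035 for Stx1a, -0.057 to 0.14 for Vamp2 and -0.18 to 0.27 for Unc13a. They were -0.087 to 0.060 for Unc13a and -0.018 to 0.058 for Cplx2 on re-addition, and -0.14 to 0.0077 for Stx1a and -0.077 to 0.016 for Rims2 in Rap against re-added. Against control they were -0.19 to 0.25 for Unc13a and -0.0007 to 0.49 for Rims2 in re-added cells, and -0.41 to 0.039 for Unc13a, -0.068 to 0.053 for Rab27a and -0.026 to 0.46 for Rims2 with Rap. The causes were not tested.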
